A study of Danio rerio with 4 samples.

Results

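The sproutys spry1, spry2 and spry4, the sprouty-related genes spred1 and spred2a, and the dual-specificity phosphatase genes dusp1, dusp2, dusp4, dusp5 and dusp6 were followed as a set of feedback inhibitors of ERK signalling. They were picked by gene symbol, and all 10 were found among the 30838 rows of the deposited table. The cells came from zebrafish larvae of the AB strain at 4 days post fertilization and were sorted for low fluorescence of the cd41:eGFP reporter, the gate the labels call hematopoietic stem/progenitor cells. The groups were smu07 mutants with 2 libraries and siblings with 2 libraries, each made from about 500 pooled cells by whole-transcriptome amplification. The series title ties the mutation to slc20a1b, a phosphate transporter gene, and the labels give neither the lesion nor the genotypes among the siblings. All fish of both groups carried the same reporter and had no further treatment.

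Receptor tyrosine kinases and cytokine receptors signal through Ras, Raf and MEK to the kinase ERK, which enters the nucleus and switches on early response genes. Sproutys and spreds are among the genes this pathway induces, and their proteins act back on it at the level of receptor adaptors, Ras and Raf. The nuclear phosphatases encoded by dusp1, dusp2, dusp4 and dusp5 and the cytoplasmic one encoded by dusp6 remove the activating phosphates from ERK, and dusp1, dusp2 and dusp4 also act on the stress kinases JNK or p38. These roles are known mostly from mammalian cells. In blood progenitors ERK is activated downstream of growth factor receptors, so the RNA level of these inhibitors is often read beside the pathway, although it does not measure ERK activity.

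Values are in TPM, an abundance per gene length with 1 common sum per library, so levels of different genes can be set side by side. The mutant libraries held at least 27570271 and 29253615 reads and the sibling libraries 24480164 and 25955968, counted as whole reads recovered from the TPM steps. More genes had a value above 0 in mutants (23881 and 23978) than in siblings (19528 and 19811). Whether this wider detection has a part in the rises of low genes such as spred2a was not tested. Across genes, log2(TPM + 1) correlated at r = 0.9925 within the mutant pair and 0.9732 within the sibling pair, against 0.9399 to 0.9458 between groups. Genes are not independent replicates. The sorting gate's own gene itga2b was measured in every library, at 23.5 and 19.3 TPM in mutants and 50.8 and 66.9 TPM in siblings. It was lower in mutants (log2 difference -1.41, limma adjusted p = 0.00703). The progenitor genes runx1 and myb were also measured in every library. Of 7 listed progenitor markers, 1 (runx1) was higher and 3 (lmo2, tal1 and gfi1aa) were lower in mutants at a limma adjusted p under 0.05. Over all tested genes the shares were 9.91% higher and 18.6% lower. The slc20a1b transcript stood at 49.3 and 53.8 TPM in mutants and 39.3 and 42.4 TPM in siblings (limma adjusted p = 0.0827). With no stated lesion, this level does not check the genotype labels. Whether each library had its own clutch or sort is not in the labels, and a p-value here covers only the spread of these libraries, which may be technical.

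The levels of the 10 genes spanned more than 3 orders of magnitude. In the mutant libraries dusp1 was highest at 572 ± 22 TPM, followed by dusp2 at 189 ± 15.7 TPM and dusp5 at 94.9 ± 4.87 TPM (mean ± SD, n = 2). In the sibling libraries the same phosphatase genes led in the same order, at 534 ± 7.42 TPM for dusp1, 247 ± 57.3 TPM for dusp2 and 89.7 ± 8.03 TPM for dusp5. The ranges of these 3 genes did not overlap one another in either group. The order below them differed. In mutants spry2, spry1 and spry4 followed with overlapping libraries, whereas in siblings spry2 stood alone, then spry4, then dusp6 and spry1, which overlapped. The lowest in both groups were spred2a and spred1.

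**Figure D1:**
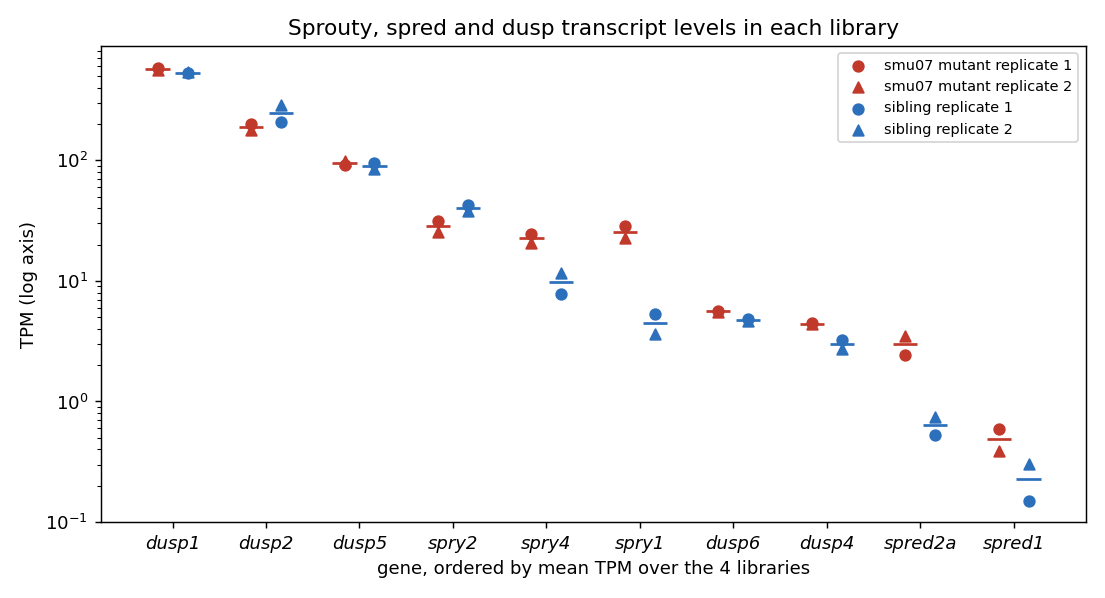
TPM of each gene in each library on a log axis, with mutant libraries in red to the left of sibling libraries in blue and short lines for group means. The spry1, spry4 and spred2a points of the mutants lie above both sibling points, while the dusp1 and dusp5 points of the groups lie close together.

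Of the 9 genes abundant enough to test (averaging 1 TPM or more across the libraries), 3 were called higher in mutants and 1 lower. Called means a Benjamini-Hochberg adjusted p under 0.05 in limma's test over all 12073 tested genes. Over all tested genes 9.91% were called higher, 18.6% lower and 28.5% in either direction. Lower genes made up 65.3% of the calls as deposited, 54.2% with median-of-ratios scaling and 49.8% with quantile normalization. The median log2 difference was 0.19 over the 9 genes and -0.14 over all tested genes. The libraries of the groups did not overlap for 8 of the 9, and for 70.0% of all tested genes. The tenth gene, spred1, lay below the filter. One that passed, spred2a, did so only through the mutant libraries, so its presence among the tested genes depends on its level there. An exact permutation test of 2 against 2 libraries cannot go below p = 0.333, so the calls rest on limma's variance estimate shared across genes.

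Among the sproutys, spry1 changed most. It encodes an inhibitor acting between receptor kinases and Ras, and stood at 28.7 and 22.5 TPM in mutants, against 5.27 and 3.61 TPM in siblings. Both mutant libraries lay far above both siblings, and the 4 possible mutant to sibling ratios ran between 4.28 and 7.96. The level rose to 25.6 ± 4.37 TPM in mutants against 4.44 ± 1.17 TPM in siblings, a ratio of means of 5.77. The log2 difference was 2.30 (SE 0.22, adjusted p = 0.00439), the 93rd largest in size among the tested genes. The reads behind these values numbered 1094 and 907 in mutants and 170 and 122 in siblings.

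The related spry4, whose mammalian product blocks Ras activation and binds Raf, also rose. It stood at 24.4 and 20.6 TPM in mutants and at 7.83 and 11.6 TPM in siblings, with no overlap. The means were 22.5 ± 2.70 TPM in mutants and 9.71 ± 2.66 TPM in siblings, a ratio of 2.32. The log2 difference was 1.15 (SE 0.21, adjusted p = 0.0147).

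In contrast, spry2 was lower in mutants. It read 31.2 and 25.4 TPM in mutants and 42.8 and 38.2 TPM in siblings, and the mutant mean was 0.698 of the sibling mean. The log2 difference was -0.51 (SE 0.15) with an adjusted p = 0.049, just inside the threshold. The direction was the same under all 13 alternatives, but the call held under only 2 of them, a filter at 5 TPM and leaving out sibling replicate 2. The adjusted p ranged from 0.0202 to 0.262.

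The makeup of the 3 sproutys differed between groups. Summed TPM of the 3 genes was 84.3 and 68.5 in mutants and 55.9 and 53.4 in siblings. Of that sum, spry1 took 34.1 and 32.9% in mutants and 9.42 and 6.76% in siblings. The share of spry2 was 37.0 and 37.0% in mutants and 76.6 and 71.5% in siblings, so this gene made up most of the sprouty transcript in siblings but not in mutants. The share of spry4 was 28.9 and 30.0% in mutants and 14.0 and 21.7% in siblings. The ratio of spry1 to spry2 TPM within a library was 0.921 and 0.888 in mutants and 0.123 and 0.0944 in siblings. Such a ratio does not change when a library is rescaled by a single factor. Its log2 difference, taken without a pseudocount, was 3.07.

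**Figure D2:**
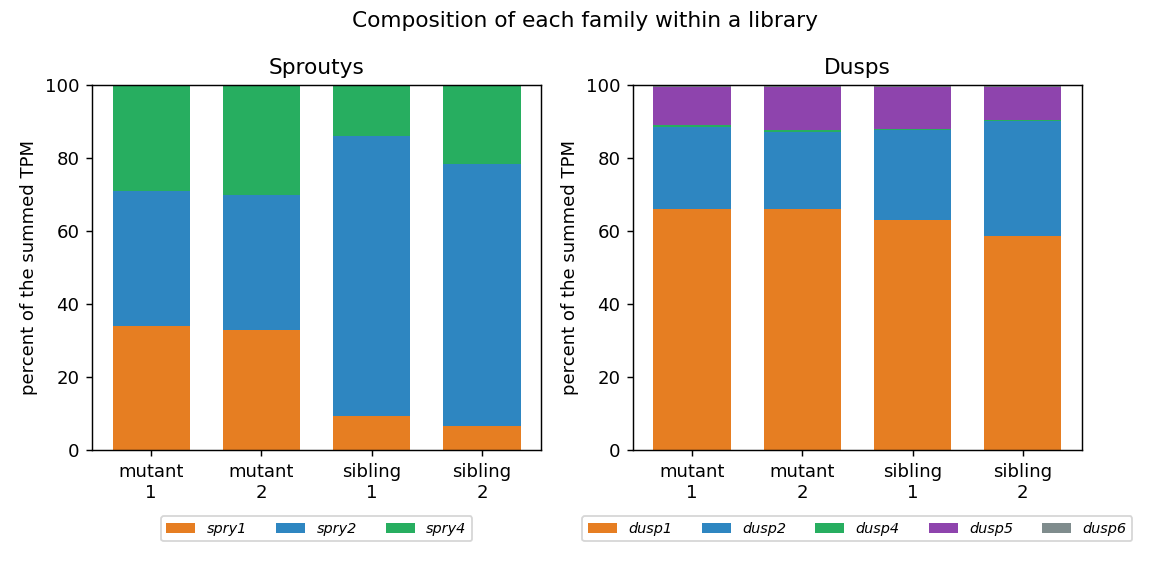
Share of each gene in the summed TPM of the sproutys (left) and of the dusps (right), as stacked bars from 0 to 100% for each library, mutants left of siblings. The spry2 block takes 37.0% in both mutant bars and 76.6 and 71.5% in the sibling bars, while the dusp bars differ less and dusp4 and dusp6 are too small to see.

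The spred genes were the least abundant of the set. Their proteins bind Ras pathway components and recruit neurofibromin, which switches Ras off. The spred2a transcript read 2.44 and 3.51 TPM in mutants and 0.530 and 0.746 TPM in siblings, without overlap. This rested on 103 and 157 reads in mutants and 19 and 28 reads in siblings. It rose by a log2 difference of 1.27 (SE 0.25, adjusted p = 0.0167), with a ratio of mean TPM of 4.66. With a sibling mean of 0.638 TPM, the gene was tested only through its level in the mutant libraries. The call was lost with no filter on low values (limma adjusted p = 0.0612). The scale of log2(TPM + 1) understates the change of so low a gene, and with a pseudocount of 0.1 the log2 difference was 2.05, and with voom on recovered reads 2.27.

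In the RefSeq annotation of GRCz12tu, used for names and neighbours only, the span of spred2a overlaps that of meis1a. Only the spans were compared, not exons or strands, so whether reads of the genes could be mixed is not known. The meis1a row read 0.105 and 0.258 TPM in mutants and 0 and 0.637 TPM in siblings. None of the other 9 members overlapped another gene there.

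The transcript of spred1 was near the floor, at 0.591 and 0.385 TPM in mutants and 0.151 and 0.306 TPM in siblings. Those values came from 74 and 51 reads in mutants and 16 and 34 reads in siblings. Both mutant libraries lay above both siblings, but the nearest pair differed by a ratio of only 1.26, and the gene was not tested. Its paralog spred2b, with the same kind of product, was at 6.0 and 5.73 TPM in mutants and 6.54 and 5.79 TPM in siblings (log2 difference -0.06, SE 0.17), and its libraries overlapped.

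The nuclear phosphatase genes made up most of the TPM of the set. Limma called 0 of them, against 28.5% of all tested genes. Their unadjusted p ran from 0.061 for dusp4 to 0.486 for dusp5, and voom on recovered reads called dusp4 alone. An immediate early gene, dusp1, whose product acts on ERK, p38 and JNK, read 587 and 556 TPM in mutants and 529 and 539 TPM in siblings. Its log2 difference was 0.10 with a 95% interval of -0.09 to 0.29 (adjusted p = 0.369). With quantile normalization it was 0.23 (limma adjusted p = 0.0652). The mutant libraries lay above the siblings by a step of a few percent.

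The dusp2 transcript, abundant in leukocytes and inducible like dusp1, read 200 and 178 TPM in mutants and 207 and 288 TPM in siblings. All mutant values lay below the sibling values, but the sibling libraries were far apart. The log2 difference was -0.37 (95% interval -0.78 to 0.04, adjusted p = 0.146). It was called only without sibling replicate 1, at -0.60 (adjusted p = 0.00681), and stood at -0.13 without sibling replicate 2.

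For dusp5, a nuclear phosphatase specific for ERK, the groups overlapped, with 91.5 and 98.4 TPM in mutants and 95.4 and 84.0 TPM in siblings. Its log2 difference was 0.08 (95% interval -0.19 to 0.36, adjusted p = 0.604). The difference ran from -0.0075 without sibling replicate 2 to 0.31 with quantile normalization (limma adjusted p = 0.103).

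Of the low phosphatase genes, dusp4 read 4.45 and 4.4 TPM in mutants and 3.26 and 2.75 TPM in siblings, a ratio of means of 1.47. Its log2 difference was 0.44 (95% interval -0.03 to 0.91, adjusted p = 0.132), and it was called at 0.64 when recovered reads were tested with voom (adjusted p = 0.0489). The cytoplasmic phosphatase gene dusp6, a widely used readout of FGF and ERK signalling in zebrafish embryos, read 5.65 and 5.51 TPM in mutants and 4.86 and 4.65 TPM in siblings. The log2 difference was 0.19 (95% interval -0.23 to 0.62, adjusted p = 0.426). For both genes the mutant pair lay above the sibling pair, with mutant to sibling ratios of 1.35 to 1.62 for dusp4 and 1.13 to 1.22 for dusp6.

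The summed TPM of the 5 dusps was 889 and 843 in mutants and 839 and 919 in siblings, with overlapping libraries. Within it, dusp1 took 66.0 and 66.0% in mutants and 63.0 and 58.7% in siblings, and dusp2 took 22.5 and 21.1% in mutants and 24.7 and 31.3% in siblings. The ratio of dusp5 to dusp1 was 0.156 and 0.177 in mutants and 0.180 and 0.156 in siblings. That of dusp2 to dusp1 was 0.341 and 0.320 in mutants and 0.391 and 0.534 in siblings, without overlap (log2 difference -0.47).

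**Figure D3:**
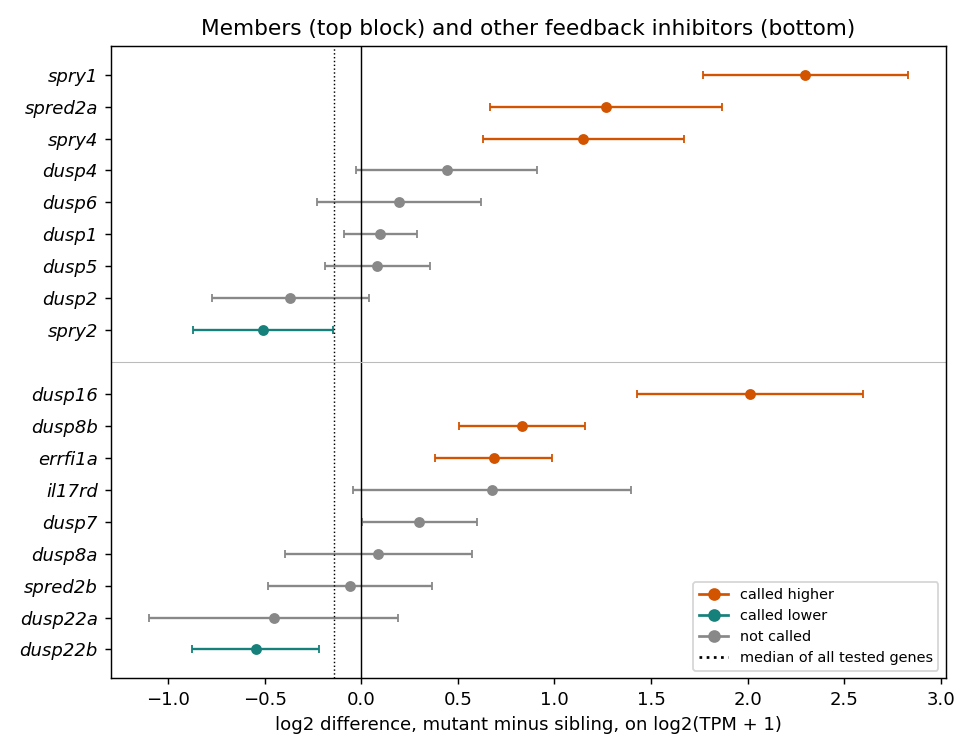
Log2 difference of each tested gene, mutant minus sibling, with limma's 95% interval. The sprouty, spred and dusp set is at the top and the list of other family members and inhibitors at the bottom. The intervals of spry1, spred2a and spry4 lie above 0, that of spry2 lies below 0, and those of the 5 dusps in the top block include 0.

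All called changes of the set depended on having both mutant libraries. Without mutant replicate 1 the adjusted p was 0.107 for spry1, 0.174 for spry4, 0.133 for spred2a and 0.149 for spry2, and without mutant replicate 2 it was 0.0906, 0.126, 0.158 and 0.262 in the same order. Over all genes 0 were then called higher and only 4 and 3 lower, while 2899 and 3129 had an unadjusted p under 0.05. Directions did not change: leaving out any 1 library, the log2 difference ran from 2.08 to 2.52 for spry1, from 0.89 to 1.41 for spry4 and from 1.07 to 1.46 for spred2a.

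**Figure D4:**
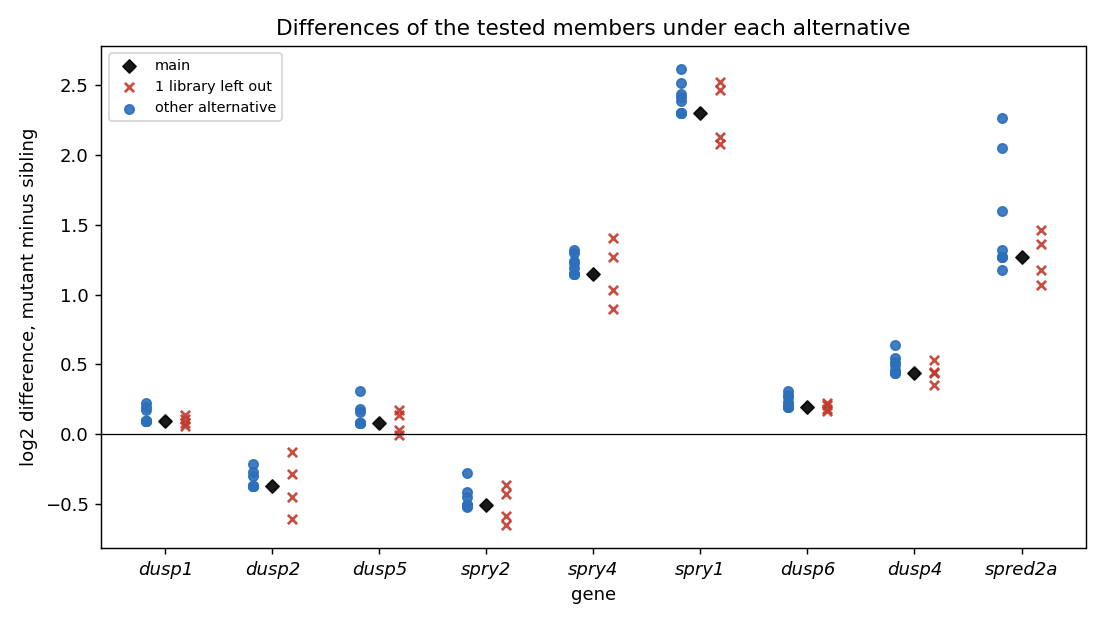
Log2 difference of each tested gene, mutant minus sibling, in the main analysis (black), with 1 library left out (red crosses) and under the other alternatives (blue). The spry1, spry4 and spred2a values stay above 0.8 throughout and spry2 stays below 0, while dusp5 runs from -0.0075 to 0.31.

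Other genes of the same families and other inhibitors of the pathway were listed to set beside the set. The list includes phosphatases that act on JNK and p38 and atypical ones, so it is not a list of ERK inhibitors alone. Of 14 listed genes 12 were in the table and 9 were tested. Of those 9, 3 were called higher and 1 lower, against 9.91% and 18.6% of all tested genes. The largest was dusp16, whose product prefers JNK and p38, at 11.2 and 8.06 TPM in mutants and 1.93 and 1.31 TPM in siblings (log2 difference 2.01, SE 0.24, adjusted p = 0.00645). A second phosphatase gene of that class, dusp8b, rose to 99.5 and 85.4 TPM in mutants against 47.4 and 55.5 TPM in siblings (log2 difference 0.83, adjusted p = 0.011). These 2 genes, both known for acting on the stress kinases, did not overlap between the groups. The same held for 7 of the 9 tested genes of this list and for 70.0% of all tested genes.

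The EGF receptor inhibitor gene errfi1a rose to 53.4 and 54.7 TPM in mutants against 31.0 and 35.7 TPM in siblings (log2 difference 0.68, adjusted p = 0.014). The atypical phosphatase gene dusp22b fell to 24.8 and 21.9 TPM in mutants against 32.7 and 36.3 TPM in siblings (log2 difference -0.55, adjusted p = 0.0313), a call that was lost with median-of-ratios scaling (adjusted p = 0.054), voom (0.0542), the replicate block (0.0594), no filter on low values (0.0613), no trend in the variance (0.062) and quantile normalization (0.136). The cytoplasmic ERK phosphatase gene dusp7, the closest relative of dusp6 in this list, read 86.8 and 74.3 TPM in mutants and 67.6 and 62.5 TPM in siblings. It was not called (log2 difference 0.30, adjusted p = 0.113), but passed under quantile normalization (0.54) and voom (0.38).

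Upstream, 30 of 45 listed genes from receptors to ERK were tested, with 3 called higher, 8 lower and a median log2 difference of -0.01. These calls were 10% and 26.7% of the tested list, against 9.91% and 18.6% of all tested genes, whose median was -0.14. The higher ones were csf1ra and csf1rb, paralogous macrophage growth factor receptor genes, and kras. The csf1ra transcript stood at 23.0 and 22.6 TPM in mutants and 4.96 and 8.79 TPM in siblings (log2 difference 1.64, adjusted p = 0.00981), and csf1rb, at 69.1 and 65.9 TPM in mutants and 48.7 and 44.1 TPM in siblings, rose by 0.53 on the log2 scale, a call that was lost with no trend in the variance (adjusted p = 0.0571).

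The Ras genes did not move together. The hrasa transcript fell to 10.4 and 11.2 TPM in mutants against 25.7 and 29.6 TPM in siblings (log2 difference -1.28, adjusted p = 0.00601), and nras to 11.0 and 11.6 TPM in mutants against 23.4 and 21.3 TPM in siblings (-0.92). In contrast, kras read 11.1 and 12.2 TPM in mutants and 7.68 and 5.92 TPM in siblings (log2 difference 0.71, adjusted p = 0.0358), a call that was lost with the replicate block (0.06) and no filter (0.0766). The gene was named after its values were seen. The Raf gene raf1a fell to 3.16 and 4.00 TPM in mutants against 8.33 and 9.47 TPM in siblings (-1.11). The other listed Raf genes raf1b (-0.35), araf (-0.08) and braf (0.16) were not called. The hrasa paralog hrasb (-0.16) was not called either, and its libraries overlapped. These uncalled genes were named after their values were seen.

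The most abundant gene of the cascade, the adaptor grb2b, stood at 95.4 and 100.3 TPM in mutants and 84.1 and 93.4 TPM in siblings and was not called (log2 difference 0.14). The ERK gene mapk3, named here after its values were seen, fell to 43.7 and 43.7 TPM in mutants against 58.8 and 56.3 TPM in siblings (log2 difference -0.39, adjusted p = 0.0414). Its call was lost under 7 of the alternatives that kept both mutant libraries, with an adjusted p of 0.0528 to 0.378. The adaptor gene grb2a was listed at 0 in all 4 libraries, and a value at 0 in this table can be a failed estimate. The FGF receptor genes fgfr1a, fgfr1b, fgfr2, fgfr3 and fgfr4 lay below the filter.

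Of 26 transcripts listed as ERK-responsive 21 were tested, with 3 called higher, 3 lower and a median log2 difference of -0.02. These calls were 14.3% in each direction, against 9.91% higher and 18.6% lower over all tested genes. Whether each listed gene responds to ERK in these cells was not tested. The higher ones were phlda3, fosaa and egr2b. The p53 target phlda3 stood at 11.7 and 9.22 TPM in mutants and 1.99 and 3.72 TPM in siblings (log2 difference 1.60, limma adjusted p = 0.0124). The early response gene fosaa stood at 13.4 and 12.4 TPM in mutants and 6.82 and 7.21 TPM in siblings. For egr2b the log2 difference was 0.62. The lower ones were egr3, at 38 and 37.1 TPM in mutants and 55.0 and 75.1 TPM in siblings (log2 difference -0.76, adjusted p = 0.0227), junbb, at 1531 and 1296 TPM in mutants and 1953 and 2035 TPM in siblings (-0.50), and the survival gene mcl1b (-0.45). Calls were lost with no filter on low values for phlda3 (adjusted p = 0.0532), egr3 (0.0715), junbb (0.0671), egr2b (0.0984) and mcl1b (0.0715). With no trend in the variance they were lost for egr3 (0.0533), junbb (0.0776), egr2b (0.073) and mcl1b (0.0926), and with quantile normalization for egr3 (0.0666) and mcl1b (0.12). The call of egr2b was also lost with the replicate block (0.0692) and that of mcl1b without sibling replicate 2 (0.0529). Both were named after their values were seen. The list's most abundant gene, mcl1a, read 3069 and 2885 TPM in mutants and 3332 and 3435 TPM in siblings and was not called (-0.19, adjusted p = 0.0888), but passed under quantile normalization (-0.38).

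The ETS factor genes etv5a, etv5b and etv4, induced with sproutys by FGF in zebrafish embryos and named here after their values were seen, were low. The first stood at 7.66 and 6.90 TPM in mutants and 4.81 and 5.26 TPM in siblings, without overlap, and was not called (log2 difference 0.45, adjusted p = 0.0985), but passed with voom (0.60). For etv5b the values were 1.28 and 1.18 TPM in mutants and 0.440 and 1.23 TPM in siblings, with overlap, and it was called only without sibling replicate 2 (log2 difference 0.63). With a sibling mean of 0.836 TPM, etv5b passed the filter only through the mutant libraries. The etv4 transcript was below 0.3 TPM in every library.

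Of 21 listed JNK and p38 pathway kinase genes 17 were tested. Limma called 0 of them higher and 1 lower, against 9.91% and 18.6% of all tested genes. At an unadjusted p under 0.05, 0 were higher and 3 lower, and voom called 0 higher. The one was map2k6, which encodes an activator of p38, at 27.8 and 30.1 TPM in mutants and 50.3 and 52.6 TPM in siblings (log2 difference -0.81, adjusted p = 0.00903). The p38 gene mapk14b, the next most abundant, read 19.8 and 20.0 TPM in mutants and 20.1 and 22.2 TPM in siblings (log2 difference -0.08). Every call named from these 4 lists was lost without either mutant library, with adjusted p between 0.0954 and 0.309.

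**Figure D5:**
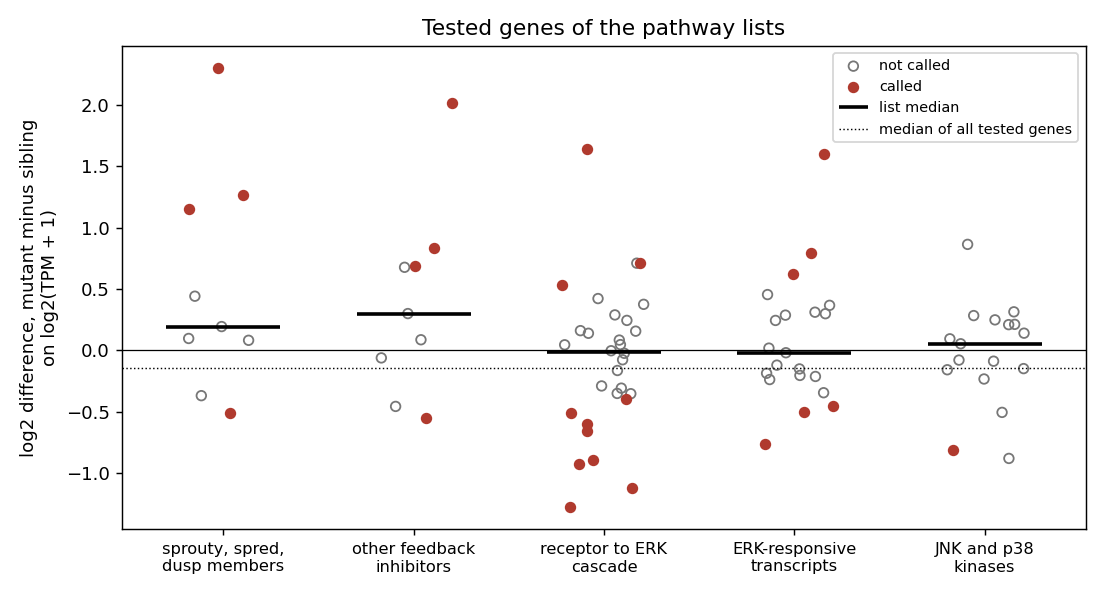
Log2 difference of each tested gene in the 5 lists, mutant minus sibling, with called genes filled and list medians as thick lines. The medians of the lists run from -0.02 to 0.30, all above the median of all tested genes at -0.14, and called genes lie on both sides of 0 in all lists but that of the JNK and p38 kinases.

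The genes whose pattern over the 4 libraries was closest to that of spry1, by Euclidean distance between centred log2(TPM + 1) values, were fzd2, a Wnt receptor gene, at a distance of 0.201, zgc:171566 at 0.245 and enkur at 0.247. The fzd2 transcript stood at 24.7 and 17.1 TPM in mutants and 4.69 and 3.22 TPM in siblings. With a sibling mean of 0.379 TPM, enkur passed the filter only through the mutant libraries. With 4 libraries in 2 groups, many genes of like group difference can come close by this measure.

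Marker transcripts of other cell types also differed between the same libraries, and in bulk samples fewer cells of a type and less RNA per cell cannot be told apart. The counts of markers below stand beside 9.91% called higher and 18.6% called lower over all tested genes. Of 8 listed keratinocyte markers 6 were tested and 6 were higher, with summed levels of 358 and 212 TPM in mutants and 43.4 and 35.9 TPM in siblings. Of the 6, 4 (krt4, cyt1, cyt1l and krt91) averaged under 1 TPM in siblings and passed the filter only through the mutant libraries. Of the keratinocyte sums, icn alone read 179 and 113 TPM in mutants and 43.2 and 27.6 TPM in siblings. Of 8 macrophage markers 4 were tested and 4 were higher, with sums of 806 and 781 TPM in mutants and 299 and 267 TPM in siblings. Of these sums, ctsl.1 alone read 558 and 564 TPM in mutants and 189 and 151 TPM in siblings. The csf1ra row is shared with the list from receptors to ERK. Among defining markers, epcam, c1qa and c1qc were listed at 0 in all 4 libraries, and krt91 and mpeg1.1 at 0 in both siblings. In mutants krt91 read 27.6 and 16.4 TPM, but mpeg1.1 only 0.0455 and 0.0344 TPM, from 5 and 4 reads. The macrophage marker mpeg1.1 was thus near the floor in both groups. Of 7 neutrophil markers 5 were tested, with 3 higher and 1 lower, and sums of 846 and 1044 TPM in mutants and 599 and 458 TPM in siblings. Of these sums, npsn read 296 and 394 TPM in mutants and 239 and 106 TPM in siblings and was not called (limma adjusted p = 0.0693). The neutrophil marker lyz lay below the filter, at 0.407 and 0.565 TPM in mutants and 0.866 and 0.551 TPM in siblings.

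The tested red cell markers and 4 of the 7 thrombocyte markers moved the other way. Of 7 erythroid markers 4 were tested and 4 were lower. The list summed to 138 and 220 TPM in mutants and 979 and 491 TPM in siblings. Of this the globin hbbe1.1 alone read 76.9 and 128 TPM in mutants and 768 and 231 TPM in siblings. The erythroid markers gata1a and alas2 did not exceed 0.017 TPM in any library. Of 7 thrombocyte markers 4 were lower and 1 higher, with sums of 217 and 186 TPM in mutants and 302 and 340 TPM in siblings. Of 4 tested fibroblast and cartilage markers 3 were higher and 0 lower, and those 3 (col1a1b, col1a2 and sparc) passed the filter only through the mutant libraries. Their list's sums overlapped, at 21.5 and 13.1 TPM in mutants and 1.68 and 23.5 TPM in siblings, of which twist1a alone read 5.09 and 3.75 TPM in mutants and 0.886 and 23.0 TPM in siblings. Of 4 tested endothelial markers 2 were higher and 2 lower, with 1 of the higher ones (stab1) passing only through the mutants, and the sums were 38.4 and 43.6 TPM in mutants and 107 and 91.5 TPM in siblings. Of 7 progenitor markers 1 was higher and 3 were lower, with sums of 275 and 293 TPM in mutants and 404 and 409 TPM in siblings. Of 3 tested lymphoid markers 0 were higher and 2 lower, and of 2 tested muscle markers 1 was higher and 0 lower. The higher muscle marker, tpma, passed the filter only through the mutants, and 1 lower progenitor marker (gfi1aa) and 1 lower lymphoid marker (zap70) passed only through the siblings. The part of these shifts in the differences of spry1, spry4, spred2a and spry2 was not tested.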

How the data were processed

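The authors deposited TPM values for 4 libraries in 1 table. Per the submitters' processing notes, the build was GRCz11 and the tools were STAR, featureCounts, FastQC and DESeq2. For versions, annotation release and strand setting, nothing is given in the sources used here. Since TPM sums to 1 total in each library, abundant genes that rise push others down. Whole reads were recovered from ratios between libraries, as the smallest whole numbers in the observed proportions (tolerance 0.0001, 23927 of 23927 rows above 0 in at least 2 libraries), so read numbers are lower bounds. Rows above 0 in only 1 library, 2178 of them, are missing from the totals. The labels name no molecular identifiers, so amplified reads are not taken as counts of molecules.

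The test ran across all genes that averaged 1 TPM or more, on log2(TPM + 1), using limma 3.58.1 under R 4.3.3 (eBayes with trend), mutant minus sibling, Benjamini-Hochberg threshold 0.05. The scripts were tested on simulated data. Errors on TPM are SD and errors on log2 differences are SE from the model. The genes named are all members, up to 4 called genes of smallest p and the 2 most abundant of each pathway list, and the 3 closest in pattern to the member of largest change. Other list genes, such as kras, mapk3, egr2b, mcl1b, spred2b, grb2a and the fgfr and etv genes, the marker genes and the dusps outside the lists were named after their values were seen. The members and lists were chosen with earlier results of these data known. Other settings were 2 pseudocounts, 2 filters, 2 scalings, no trend, each library left out, the replicate number as a block, and voom on recovered reads. Values are given for only some list genes.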

Additional observations from a re-analysis of the deposited data

How the results depend on the processing

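Over the 13 alternatives no called gene of the set changed direction. The fall of spry2 lost its call with a pseudocount of 0.1 (-0.52) or 0.5 (-0.52), no filter on low values (-0.51), median-of-ratios scaling (-0.41), quantile normalization (-0.27), no trend (-0.51), the replicate block (-0.51) and voom (-0.45), which left 0 members called lower in each by limma, with an unadjusted p of 0.0125 to 0.136 for spry2. With no filter spry4 (1.15) and spred2a (1.27) were also lost, leaving 1 member called higher. dusp4 passed with voom (0.64). With 1 library left out, spry1 ran from 2.08 to 2.52, spry4 from 0.89 to 1.41, spred2a from 1.07 to 1.46, spry2 from -0.65 to -0.37 and dusp2 from -0.60 to -0.13, and 0 to 3 members were called higher and 0 to 1 lower. Over all genes these fits called 0 (without either mutant library) to 2044 (without sibling replicate 2) higher and 3 (without mutant replicate 2) to 3206 (without sibling replicate 1) lower, while 4 and 3 members had an unadjusted p under 0.05 without mutant replicate 1 and 2. The counts were 1124 lower with no filter, 1316 lower with quantile normalization and 778 higher at a mean of at least 5 TPM, where spred2a and dusp4 were not tested. Deviations of same-numbered libraries from their group means correlated at -0.046 across genes. That value cannot show whether those libraries shared a clutch or sort. With the replicate number as a block, 981 genes were called higher and 1682 lower. Of 324 values of 25 named list genes, 254 kept their side of the threshold, 65 lost it and 5 gained it. The cause of these changes was not tested. Depth limits spred1 and spred2a, with 16 to 157 reads.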

Other observations

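A further 12 rows of the table carry a dusp symbol outside the lists, taken by symbol after the data were seen. Most encode atypical phosphatases without the ERK-binding part of the MAP kinase phosphatases. Of these, 5 were tested and limma called 0 of them, against 28.5% of all tested genes. Only 1 (dusp19b) had an unadjusted limma p under 0.05, and voom called 0. The most abundant was dusp23b, at 20.6 and 20.2 TPM in mutants and 18.6 and 23.2 TPM in siblings. The dusp19b transcript read 2.73 and 3.63 TPM in mutants and 1.91 and 1.66 TPM in siblings, and dusp28 read 1.44 and 1.48 TPM in mutants and 0.335 and 0 TPM in siblings, under the filter. The rows dusp3b, dusp19a and dusp23a were listed at 0 in all 4 libraries.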
